A study of Oryza sativa Japonica Group with 9 samples.

Results

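The places bound by the histone demethylase JMJ705 in the rice shoot apex were compared between plants with the wox11 mutation and plants without it. The members are all 1309 peaks of the list from the wox11 background and all 1551 peaks of the list from the wild-type background, 2860 peaks in all and every peak of the series. They come from 2 of the series' 9 samples, and no measured value was used to choose them. Each background has 1 ChIP-seq library (chromatin immunoprecipitation followed by sequencing), so every difference between the lists is a description, with no test and no replicate error.

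Apices of 2 to 3 mm were cut from 5-day-old seedlings grown in days of 14 h light (28 °C) and 10 h dark (24 °C). The library wox11/oxJ5 came from plants that over-express JMJ705 and also carry the wox11 mutation. The library oxJ5 came from over-expressing plants whose background is wild type, so the extra JMJ705 is common to both. JMJ705 was pulled down with an antibody against the FLAG tag from chromatin sheared to 200 to 500 bp. The sources used here do not give the promoter that drives the transgene, the wox11 allele, or how many lines and plants went into a library. The RNA of wox11 mutant and wild-type apices of the cultivar Hwayoung, without over-expression, was sequenced in 2 libraries per genotype that the design text calls biological repeats. A pair of libraries labelled jmj705 mutant entered the same fit, where they bear on the filter and on the estimate of the spread. JMJ705 mRNA was 13.7 and 12.5 FPKM (fragments per kb of transcript per 1000000 mapped fragments) in the libraries labelled jmj705, against 7.41 and 6.73 FPKM in wild-type apices, so their targeted gene was not lowered, and the mutation's position is not among the labels. The wox11 and wild-type RNA libraries serve here to describe the genes that lie at peaks. OSH1, a homeobox gene that marks the shoot meristem, was at 42.7 and 45.9 FPKM in wox11 apices and at 53.1 and 66.3 FPKM in wild-type apices, so the labelled tissue showed its marker.

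Trimethylation of histone H3 at lysine K27 (H3K27me3) is laid down by the Polycomb complex PRC2 and goes with genes that are kept silent. JMJ705 is a jumonji-type enzyme that removes this mark, and it is related to REF6 of Arabidopsis. WOX11, a homeobox protein related to WUSCHEL, switches genes on or off and is best known for the growth of crown roots in rice. The comparison asks where JMJ705 sits on the genome in plants that carry the wox11 mutation.

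The wox11/oxJ5 library was the deeper of the pair. Its header records 7509947 tags, of which 6811451 were kept after duplicates were removed, against 5043282 and 4488720 in the wild-type background. The kept tags differed 1.52-fold between the libraries. The controls went the other way, with 1.73 kept control tags per kept ChIP tag in the wox11 background and 3.46 in the wild-type background. The tags were also of unequal length, 122 bases in the wox11 background and 104 bases in the wild-type background. The peaks held 95968 tags in the wox11 background, which is 1.41% of its kept tags, and 95903 tags in the wild-type background, which is 2.14%. The library from the wild-type background therefore put a larger share of fewer tags into more peaks. Depth, control and genotype differ together between the libraries, so their parts in any difference cannot be told apart.

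Peaks in both lists were short and similar in shape. The median length was 937 bp in the wox11 background (356 to 8068 bp) and 950 bp in the wild-type background (288 to 7348 bp). Peaks longer than 2000 bp numbered 62 in the wox11 background and 68 in the wild-type background. The summit, the point with most tags, lay at a median of 50% of the peak's length in the wox11 background and at 50.1% in the wild-type background. The median peak held 47 tags in the wox11 background and 37 in the wild-type background. The smallest peak held 23 tags in the wox11 background and 17 in the wild-type background.

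Tags were scaled to peak length and to depth as tags per kb per 1000000 kept tags, called the tag density here. The median density was 7.28 in the wox11 background (5.43 to 145) and 8.59 in the wild-type background (6.38 to 186). Tags spread evenly over the genome size in the headers would give 2.5 on this scale. The median peak thus stood 2.91 times above even coverage in the wox11 background and 3.43 times above it in the wild-type background. The lowest density that entered each list also differed, since each list was called at its own depth and against its own control. The deposited score is the authors' value, 10 times the negative log10 of the peak's p-value. It starts at 50.03 in the wox11 background and at 50.02 in the wild-type background. The authors' false discovery rate had a median of 6.09% in the wox11 background and 1.65% in the wild-type background. No peak of the wox11 background had a rate of 5% or less, whereas 1532 peaks of the wild-type background did.

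Peak numbers were lower in the wox11 background on 10 of the 12 chromosomes. Over the genome the number in the wox11 background was 0.844 times that in the wild-type background, or 3.51 against 4.16 peaks per Mb. The ratio was lowest on chromosome 7, with 100 peaks in the wox11 background and 146 in the wild-type background (ratio 0.685). Chromosome 1 was close to it, with 124 peaks in the wox11 background and 179 in the wild-type background (ratio 0.693). Chromosome 9 had 99 peaks in the wox11 background and 94 in the wild-type background, and chromosome 10 had 88 in the wox11 background and 80 in the wild-type background. These were the only chromosomes with more peaks in the wox11 background. Among peaks with a score of at least 100 the ratio was 1.12 on chromosome 9 but 0.645 on chromosome 10, so the direction on chromosome 10 rests on weak peaks. Chromosome 5 was the densest in both lists, with 5.07 peaks per Mb in the wox11 background and 5.88 in the wild-type background. The sparsest was chromosome 3 in the wox11 background, at 2.72 per Mb, and chromosome 10 in the wild-type background, at 3.45 per Mb.

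**Figure D1:**
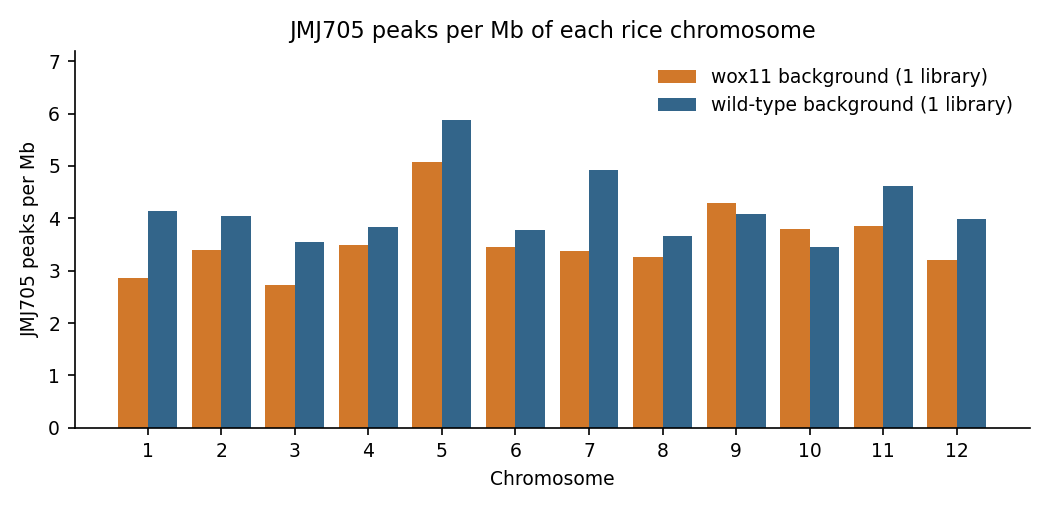
Peaks per Mb on each of the 12 chromosomes in the wox11 background and in the wild-type background, 1 library each. Chromosome 5 is highest in both lists (5.07 and 5.88 peaks per Mb), and only chromosomes 9 and 10 have more peaks in the wox11 background.

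Most peaks were found in one list only. Of the wox11-background peaks, 438 (33.5%, 95% exact binomial interval 30.9 to 36.1%) overlapped a peak of the wild-type background by at least 1 bp. Of the wild-type-background peaks, 436 (28.1%, interval 25.9 to 30.4%) overlapped a peak of the wox11 background. Such intervals, here and below, cover counting error only. That left 871 peaks in the wox11 background alone and 1115 in the wild-type background alone. Most of the unshared peaks had no near counterpart, since the closest summit in the other list was a median of 82418 bp away for the wox11-background peaks and 93166 bp away for the wild-type-background peaks. Only 50 unshared peaks of the wox11 background and 68 of the wild-type background had a summit of the other list within 5000 bp.

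The strongest peaks were shared far more often than the weakest. Among the 10% of each list with the highest scores, 87 of 131 wox11-background peaks (66.4%) and 138 of 155 wild-type-background peaks (89.0%) were shared. Among the 10% with the lowest scores, 18.3% of wox11-background peaks and 5.77% of wild-type-background peaks were shared. The shared share fell off faster down the wild-type list. Shared peaks of the wox11 background had a median density of 8.09 and 56 tags, and those found there alone had 7.03 and 44 tags. Shared peaks of the wild-type background had a median density of 11.5 and 62 tags, and those found there alone had 8.13 and 33 tags. Among peaks with a score of at least 100, 53.6% of 435 in the wox11 background and 51.5% of 592 in the wild-type background overlapped any peak of the other list. A peak missing from a list is one that did not reach that list's threshold at its depth, which does not show that JMJ705 was absent there.

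**Figure D2:**
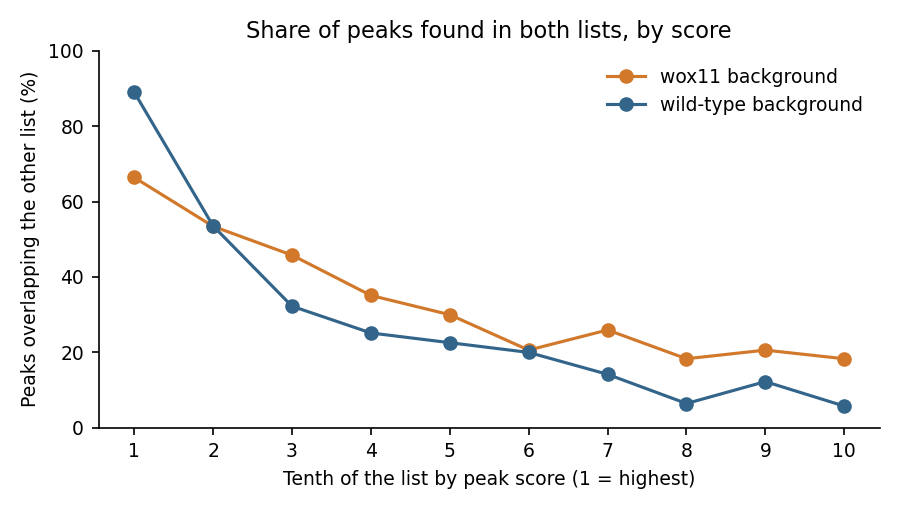
Share of peaks that overlap a peak of the other list (percent), by the authors' score in 10 equal steps from the highest to the lowest, for the wox11 background and the wild-type background. The top 10% is shared at 66.4% in the wox11 background and 89.0% in the wild-type background, and the last 10% at 18.3% in the wox11 background and 5.77% in the wild-type background.

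A few unshared peaks were nonetheless strong. In the wox11 background the unshared peak with the highest score, 599.8, lay on chromosome 5, 21761954 to 21763035, with 126 tags and a density of 17.1. The nearest wild-type-background summit was 98278 bp away. In the wild-type background the unshared peak with the highest score, 696.7, lay on chromosome 3, 13476848 to 13478624, with 232 tags and a density of 29.1. A second unshared peak of the wild-type background lay close by at 13471202 to 13474446, with 309 tags and a density of 21.2. The nearest wox11-background summit to this pair was 320243 bp from the first and 315315 bp from the second. The densest unshared peaks of the wild-type background were long ones on chromosome 11, 12277495 to 12282473 (2097 tags, density 93.8), and on chromosome 4, 9205837 to 9210762 (1798 tags, density 81.3). Their fold enrichments over control, as the authors give them, were only 3.81 and 2.21.

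At 428 places exactly 1 peak of each list met 1 peak of the other, which allows a direct comparison. The median density at these places was 8.03 in the wox11 background and 11.4 in the wild-type background. Scaled by kept tags, the density in the wox11 background was a median of 0.705 times that in the wild-type background (quartiles 0.595 and 0.855). It was higher in the wox11 background at 42 places (9.81%). The ratio was at most 1/1.5 at 174 places (40.7%) and at least 1.5 at 6 places (1.4%). The counting interval of the ratio lay below 1 at 202 places, above 1 at 5 and included 1 at 221. All of these counts change with the scaling. With tags per kb not scaled by library, the wox11 background was higher at 263 places (61.4%), and the interval lay below 1 at 23 places, above 1 at 63 and included 1 at 342. They run over all shared places and so are also the background for any single place named below.

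The direction of that ratio rests on the scaling. Without scaling by library, tags per kb in the wox11 background were a median of 1.07 times those in the wild-type background. Scaled to the tags summed over the shared places themselves the ratio was 0.998, and 1.05 when the place with most tags was left out of that sum. The 2 libraries thus held about the same number of tags in a typical shared peak, with the wox11/oxJ5 library sequenced more deeply. The sources used here name no common standard, such as added foreign chromatin, so a change at each peak and a change in the share of tags outside peaks cannot be told apart.

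The ratio was not the same at weak and strong places. Split by the mean density of both libraries into 4 equal groups, its median was 0.795 in the lowest group, then 0.705, 0.637 and 0.635 in the highest. A place must pass the threshold of both lists to be counted, and this limits how low a weak place can fall in either. Across the 12 chromosomes the median ratio stayed between 0.664 (chromosome 4) and 0.758 (chromosome 2). Across the 428 places the log2 densities of the libraries had a Pearson correlation of 0.776 and a Spearman correlation of 0.551. All places share the same 2 libraries and their depths.

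**Figure D3:**
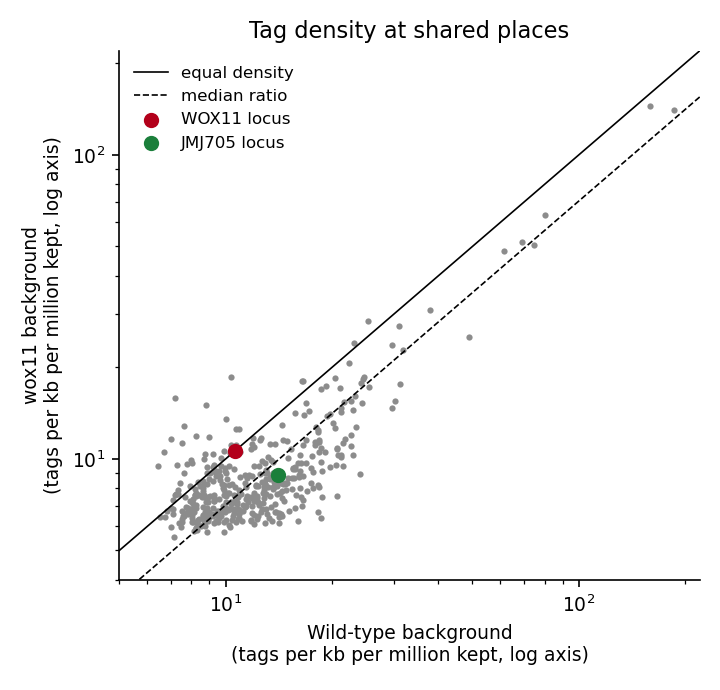
Tag density (tags per kb per 1000000 kept tags, log axes) at the 428 places with 1 peak in each list, with the wox11 background on the vertical axis and the wild-type background on the horizontal axis, 1 point per place. With this scaling by kept tags 42 places lie above the line of equality, against 263 without scaling by library.

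The place with the highest ratio lay on chromosome 8, at 22978220 to 22980213 in the wox11 background with 215 tags, and at 22979242 to 22980172 in the wild-type background with 30 tags. Its density was 15.8 in the wox11 background and 7.18 in the wild-type background, a ratio of 2.21 (interval 1.5 to 3.35), with summits 8 bp apart. On chromosome 10, a place at 20251751 to 20252761 with its summit inside LOC_Os10g37830 had densities of 18.6 in the wox11 background and 10.4 in the wild-type background, a ratio of 1.79. The 5 highest ratios ran down to 1.66, and all 5 had an interval above 1. At the other end, a place on chromosome 12, 15790838 to 15791642, had a density of 6.38 in the wox11 background (35 tags) and 18.7 in the wild-type background (66 tags). Its ratio was 0.342 (interval 0.220 to 0.523), and its summits were 6 bp apart. The 5 lowest ratios ran up to 0.390. The highest and lowest places were picked for their ratios out of 428, so these values describe the ends of the range.

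At the 428 shared places summits hardly moved between the backgrounds. These places were chosen because their peaks overlap, which by itself limits the shift. Peaks found in one list alone have no shift and are left out. The shift of the summit, wox11 background minus wild-type background, had a median of 0 bp, and it was positive at 212 places, negative at 211 and 0 at 5. Its size had a median of 40 bp (quartiles 16 and 127 bp), which is less than the length of the sheared fragments. At 241 places (56.3%) the summits lay within 50 bp of each other, and at 399 (93.2%) within 500 bp. Shifts over 1000 bp occurred at 14 places, 10 of which had a peak longer than 2000 bp in one list or both. The median size was 340 bp at the 40 places with such a long peak and 37 bp at the other 388. The largest shift, -5713 bp, was on chromosome 8, where a peak at 12209028 to 12214442 in the wox11 background met one at 12210660 to 12215681 in the wild-type background. The nearest locus to the summit was the same in both backgrounds at 420 places (98.1%), which the choice of overlapping peaks also favours.

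**Figure D4:**
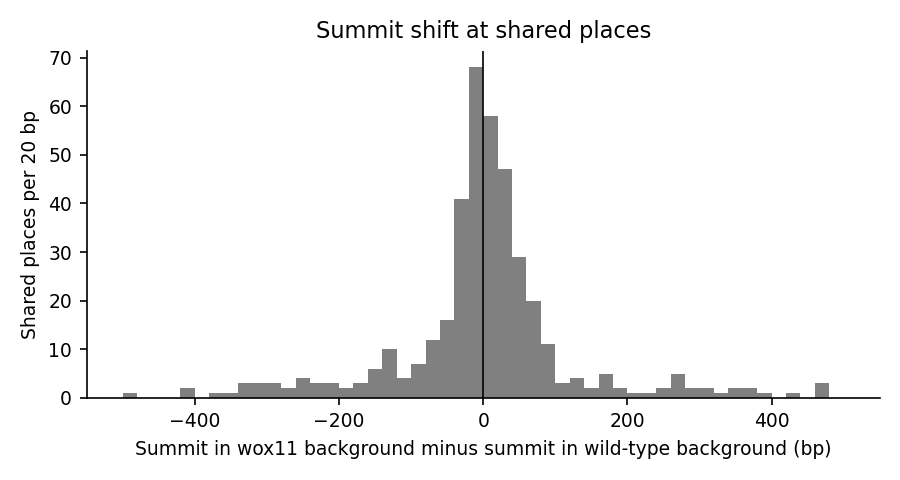
Shift of the summit in bp, wox11 background minus wild-type background, at the 428 places with 1 peak in each list. The shifts centre on 0 bp, and 241 of them are within 50 bp.

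Several of the strongest peaks sat at the same spot in both lists. A peak on chromosome 4 at 16367421 to 16368350 in the wox11 background and 16367666 to 16368434 in the wild-type background had its summit at 16367869 in both. It had the highest fold enrichment of each list, 44.12 in the wox11 background and 67.54 in the wild-type background. The highest score of the wox11 background was at chromosome 11, 12351670 to 12353256, with 286 tags and a density of 26.5. The peak that met it in the wild-type background, at 12351935 to 12353384, had 189 tags and a density of 29.0. The highest score of the wild-type background was at chromosome 9, 2309795 to 2312018, with 296 tags and a density of 29.7, and its counterpart in the wox11 background had 269 tags and a density of 23.7. The authors' false discovery rate was 100% for the 4 highest scores of the wox11 background and for the highest of the wild-type background. MACS derives that rate by exchanging ChIP and control, so as many peaks at least that strong were called in the exchanged data.

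Some of the densest places were at chromosome starts. Within the first 5000 bp, chromosomes 2, 4, 5, 8 and 10 each had a peak in both lists. The peak on chromosome 4 at 883 to 2191 in the wox11 background had 1253 tags and a density of 140.5, and that at 924 to 2240 in the wild-type background had 1097 tags and a density of 185.6. The other 4 had densities between 48.3 and 63.5 in the wox11 background and between 61.5 and 80.2 in the wild-type background. The peak with most tags of each list, on chromosome 2, held 7401 tags at 28714952 to 28722441 in the wox11 background and 5125 tags at 28715110 to 28722309 in the wild-type background. Its fold enrichment over control was the lowest of the wox11 list, 1.80, and was 2.83 in the wild-type background. Without that peak the share of kept tags in peaks was 1.30% in the wox11 background and 2.02% in the wild-type background.

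Peaks were set against the named loci of the expression tables, which give a start and an end for each locus but neither strand nor exons. A summit lay inside a locus for 48.6% of wox11-background peaks and 52.8% of wild-type-background peaks, where loci cover 48.8% of the genome. It lay inside or within 1000 bp of a locus for 70.4% of wox11-background peaks and 71.6% of wild-type-background peaks, against 70.4% of the genome. By this wider measure both lists were close to the genome's share, while summits inside a locus were above it in the wild-type background, most of all among the peaks found there alone (54.9%). With only loci of up to 50 kb counted, the shares within 1000 bp were 68.1% in the wox11 background and 69.2% in the wild-type background, against 67.8% of the genome. The shares inside such a locus were 46.2% in the wox11 background and 50.4% in the wild-type background, against 46.3% of the genome. Summits more than 5000 bp from any locus made up 7.26% of wox11-background peaks and 7.93% of wild-type-background peaks, against 4.43% of the genome. Shared peaks were more often that far away (10.5% of them in the wox11 background and 9.86% in the wild-type background) than peaks of one list alone (5.63% and 7.17%). Several of these far shared peaks lay close together on chromosome 11. Examples are those starting at 12078550, 12161667 and 12351670 in the wox11 background, with summits 39888, 58818 and 89743 bp from any locus. The shares of shared peaks thus lean in part on a single region, and the contrast without it was not computed.

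WOX11 (LOC_Os07g48560, chromosome 7, 29073043 to 29075687) had a JMJ705 peak in both backgrounds. It lay at 29072995 to 29074003 in the wox11 background, with 73 tags, and at 29072849 to 29073894 in the wild-type background, with 50 tags. Scaled by kept tags the density was 10.6 in both, a ratio of 0.997 (interval 0.687 to 1.46). Without scaling by library the ratio was 1.51 (interval 1.04 to 2.21). It ranked 43 from the highest of the 428 shared places, a rank that scaling by library cannot change. The summits were 177 bp apart, both inside the locus and 436 and 259 bp from its lower end. WOX11 mRNA was 1.49 and 1.11 FPKM in wox11 apices, against 4.52 and 5.00 FPKM in wild-type apices. On the log2(FPKM + 1) scale the difference was -1.33 (SE 0.23, limma, Benjamini-Hochberg adjusted p = 0.0575), which misses the threshold of 0.05, and over the alternatives the adjusted p ran from 0.0417 to 0.305.

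JMJ705 itself (LOC_Os01g67970, chromosome 1, 39493115 to 39500079) also carried peaks. The one near its lower end had 98 tags and a density of 8.86 in the wox11 background, at 39492990 to 39494613, and 109 tags and a density of 14.1 in the wild-type background, at 39492859 to 39494579. The ratio was 0.628 (interval 0.473 to 0.833) scaled by kept tags and 0.953 (interval 0.718 to 1.26) without scaling by library. A second peak near the upper end, at 39497312 to 39500009 with 159 tags and a density of 13.1, was in the list of the wild-type background alone. Both lines carry a JMJ705 transgene, whose tags cannot be told apart from those of the native gene. JMJ705 mRNA, measured in plants without the transgene, was 8.39 and 8.10 FPKM in wox11 apices, against 7.41 and 6.73 FPKM in wild-type apices (limma, Benjamini-Hochberg adjusted p = 0.688).

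Developmental and chromatin genes were looked up in 11 lists written from textbook knowledge, in which 62 of 88 genes could be placed on 1 locus. Of these 62, 15 (24.2%) had a summit inside or within 1000 bp, 9 (14.5%) in the wox11 background and 11 (17.7%) in the wild-type background. Among all named loci 5.43% had one in either list, 3.14% in the wox11 background and 3.59% in the wild-type background. Among named loci of up to 50 kb it was 3.79% in either list, 2.01% in the wox11 background and 2.47% in the wild-type background. The lists were written with earlier results of these data known, so no test is given. Only 5 of the 15 genes had a summit in both lists, 4 in the wox11 background alone and 6 in the wild-type background alone. The crown root genes CRL1, CRL5 and ERF3 could not be placed, so that list is not covered.

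All 4 placed genes of the Polycomb and jumonji list had a peak in the wox11 background, and 2 also had one in the wild-type background. Among all named loci the shares were 3.14% in the wox11 background and 3.59% in the wild-type background. The PRC2 genes CLF, FIE1, FIE2, EMF2A and EMF2B of that list could not be placed, so the count does not cover them. The 4 include JMJ705, where tags of the transgene cannot be told apart. JMJ703, a demethylase for lysine K4 of histone H3, had 90 tags and a density of 7.52 in the wox11 background and 70 tags and a density of 9.04 in the wild-type background, with summits at 5941772 and 5941722 on chromosome 5. EZ1, an H3K27 methyltransferase of PRC2, had a peak in the wox11 background alone, on chromosome 3, 10958926 to 10959768, with 33 tags. Its score of 51.42 was close to the lowest in the list. JMJ706, a demethylase for lysine K9 of histone H3, had a wox11-background peak on chromosome 10, 23024722 to 23025377, with 48 tags and a density of 10.7, whose summit lay 797 bp before the locus. None of the 4 placed genes passed the test in wox11 apices. EZ1, for example, was at 7.66 and 5.88 FPKM in wox11 apices, against 7.43 and 5.83 FPKM in wild-type apices.

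In the WOX family, 3 of the 4 placed genes had a peak, against 5.43% of all named loci. WOX1, NS1, WOX12 and WOX9A could not be placed, so the count does not describe the whole family. Besides WOX11, the genes with a peak were QHB, which marks the quiescent centre of the root, and WOX10, a close relative of WOX11. Both had it in the wild-type background alone. QHB had 29 tags on chromosome 1, 36813768 to 36814690, at a density of 7.0. WOX10 had 23 tags on chromosome 8, 8639889 to 8640558, at a density of 7.65. Their scores, 51.82 and 58.78, were near the threshold of the list. QHB mRNA was 0.584 and 0.558 FPKM in wox11 apices, against 1.13 and 0.900 FPKM in wild-type apices (limma, Benjamini-Hochberg adjusted p = 0.559). WOX10 stayed below 0.4 FPKM in all 4 of these libraries and was not tested.

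The counts for leaf and flower genes stand against 5.43% of all named loci with a peak. Of 6 YABBY genes, which pattern lateral organs, YAB3 and DL had a peak, both in the wild-type background alone. DL, which acts in the leaf midrib and the carpel, had 35 tags at a density of 7.57 on chromosome 3, 6042707 to 6043736. The scores were 54.12 for DL and 60.56 for YAB3, below the list's median of 81.18. DL mRNA was 8.87 and 13.5 FPKM in wox11 apices, against 15.6 and 16.1 FPKM in wild-type apices. YAB3 mRNA was 8.89 and 11.8 FPKM in wox11 apices, against 14.2 and 14.1 FPKM in wild-type apices. Neither gene passed limma with Benjamini-Hochberg adjustment (adjusted p = 0.410 for DL and 0.394 for YAB3). YAB1, YAB2, YAB4 and YAB5, which had no peak, did not pass either. Of 14 placed floral MADS-box genes 2 had a peak. MADS6, a regulator of the floral meristem, had 54 tags and a density of 8.41 in the wox11 background and 29 tags and a density of 8.37 in the wild-type background. MADS5 had 30 tags in the wild-type background alone, with a score of 63.98. Both were below 0.1 FPKM in all 4 libraries.

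No peak lay at the 7 placed genes of the KNOX and BELL homeobox list, which includes the shoot meristem marker OSH1. All 7 are OSH genes of the KNOX type. The BELL gene of the list, QSH1, could not be placed, so BELL genes are not covered. The 4 placed genes of meristem size and branching, the 4 of photoperiod flowering and the 4 vegetative MADS-box genes had none either. With 5.43% of all named loci at a peak, lists this short say nothing particular by having none. Of 8 placed type-A response regulators, which damp cytokinin signalling, RR2 alone had peaks. RR2 is known as a gene that WOX11 represses in crown roots. Just past the end of the locus on chromosome 2, a peak at 21131141 to 21133521 in the wox11 background (137 tags, density 8.45) met one at 21131141 to 21132519 in the wild-type background (57 tags, density 9.21). Its summit lay 464 bp past the locus in the wild-type background, while that in the wox11 background was 1149 bp further on and so outside the 1000 bp limit. A further peak, with its summit 927 bp before the locus, was in the list of the wox11 background alone (21127407 to 21128126, 42 tags). RR2 mRNA was 21.7 and 24.3 FPKM in wox11 apices, against 21.5 and 17.4 FPKM in wild-type apices (limma, Benjamini-Hochberg adjusted p = 0.684).

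Of 7 placed clock genes 3 had a peak, and 2 of these 3 passed the test in wox11 apices. Among all named loci 5.43% had a peak, and among all tested loci 0.838% passed. GI, a clock gene without a peak in either list, passed too. It was at 197 and 213 FPKM in wox11 apices, against 43.9 and 56.6 FPKM in wild-type apices (limma, Benjamini-Hochberg adjusted p = 0.00265). PRR1, PRR73 and ELF3 had no peak and did not pass. PRR59, PRR95 and FKF1 of the clock list could not be placed. LHY (LOC_Os08g06110), a morning transcription factor of the circadian clock, had a peak in the wild-type background alone, on chromosome 8, 3360521 to 3361819, with 39 tags and a density of 6.69. Its score of 66.33 was below the list's median of 81.18, and its density was below the list's lower quartile of 7.68. LHY mRNA was 5.31 and 4.85 FPKM in wox11 apices, against 147 and 123 FPKM in wild-type apices. It fell by 4.48 on the log2(FPKM + 1) scale (SE 0.16, limma, Benjamini-Hochberg adjusted p = 6.23e-05) and passed under all 10 alternatives. LUX (LOC_Os01g74020), a part of the evening complex, had a peak in the wox11 background alone, on chromosome 1, 42875303 to 42876294, with 52 tags, a density of 7.70 and a summit 275 bp past the locus. Its score of 109.81 was above that list's median of 76.6. LUX mRNA was 45.9 and 48.2 FPKM in wox11 apices, against 0.913 and 3.44 FPKM in wild-type apices. It rose by 4.04 on the same scale (SE 0.37, limma, Benjamini-Hochberg adjusted p = 0.00627). That call was lost without the filter on low FPKM (adjusted p = 0.111) and without wox11 replicate 1 (0.0610) or 2 (0.0700). PRR37, a pseudo-response regulator, had a peak of 47 tags in the wox11 background alone and was at 16.6 and 20.1 FPKM in wox11 apices, against 20.3 and 18.4 FPKM in wild-type apices. The sources used here do not give the hour at which apices were sampled.

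Of tested loci at peaks 1.17% passed the adjusted test in wox11 apices, against 0.838% of all tested loci. Of 3024 named loci with a summit inside or within 1000 bp, 1023 had it in the wox11 background alone, 1275 in the wild-type background alone and 726 in both. Enough expression for a test was found at 1285, of which 15 (1.17%) passed limma in wox11 against wild-type apices, 8 higher and 7 lower in wox11. Among all 21480 tested loci 0.838% passed, 0.456% higher and 0.382% lower. The loci that passed were 5 of 442 with a peak in the wox11 background alone, 7 of 573 in the wild-type background alone and 3 of 270 in both. These shares were 1.13%, 1.22% and 1.11%, and whether they differ from the share over all loci was not tested. The median change on the log2(FPKM + 1) scale was 0.00 at loci of the wox11 background alone, -0.03 at those of the wild-type background alone and 0.00 at those of both, against -0.02 over all tested loci.

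Wide loci weigh on these counts, as 970 of the 3024 loci are over 50 kb long in the tables and many of them share coordinates. Among loci of up to 50 kb, 4 of 350 tested passed with a peak in the wox11 background alone, 7 of 455 in the wild-type background alone and none of 164 in both. Over all tested loci of that size 175 of 21015 (0.833%) passed. At an unadjusted p of 0.05 the limma test gave 49 of those 350 (14.0%), 62 of those 455 (13.6%) and 18 of those 164 (10.98%). The share over all loci of that size was 10.5%, below each of these. Without the limit on length it was 12.9% of tested loci at peaks, against 10.5% of all tested loci. Whether these shares differ was not tested. Loci below 1 FPKM in wild-type apices made up 52.5% of those of up to 50 kb with a peak in the wox11 background alone. The share was 55.3% with a peak in the wild-type background alone, 58.8% with one in both and 62.8% among all of that size.

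**Figure D5:**
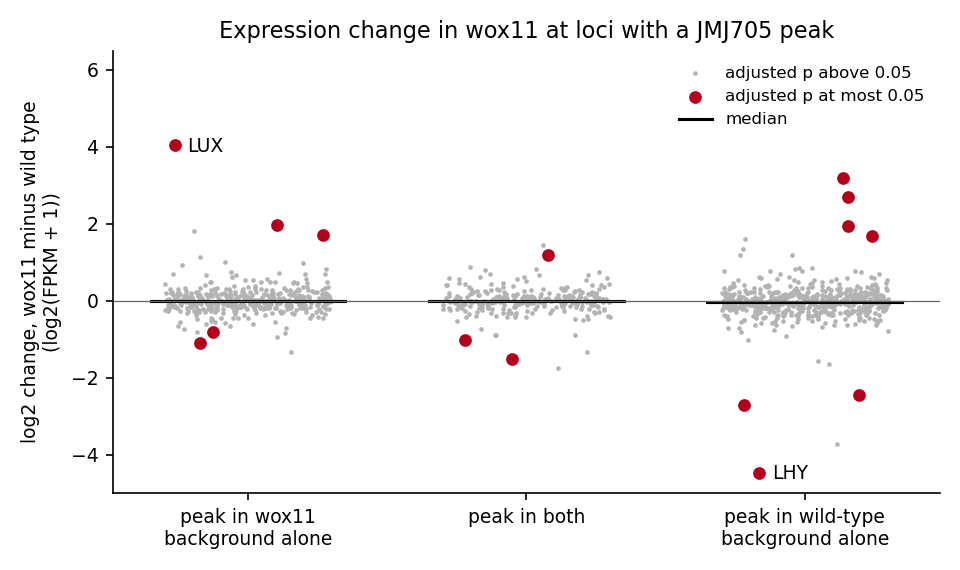
Change in mRNA on the log2(FPKM + 1) scale, wox11 minus wild-type apices (2 libraries each), at tested loci with a peak in the wox11 background alone, in both backgrounds and in the wild-type background alone. The medians lie at 0.00, 0.00 and -0.03, and 15 loci passed the test.

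Most other loci that passed had no gene name in the tables used, and 2 are given as examples. LOC_Os02g49680 was at 9.97 and 7.13 FPKM in wox11 apices, against 52.5 and 49.4 FPKM in wild-type apices. It fell by 2.46 on the log2(FPKM + 1) scale (SE 0.16, limma, Benjamini-Hochberg adjusted p = 0.00127). Its peak, with 20 tags and a score of 53.25 in the wild-type background alone, had a summit 953 bp past the locus. The merged locus LOC_Os12g13445,LOC_Os12g13450 was at 8.19 and 8.40 FPKM in wox11 apices and was listed at 0 and at 0.0380 FPKM in wild-type apices (limma, Benjamini-Hochberg adjusted p = 0.000403). It too had a peak in the wild-type background alone, with 32 tags, a score of 68.07 and a summit 213 bp past the locus. Both calls held under all 10 alternatives.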

How the data were processed

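The authors called peaks with MACS 1.4.2, 1 list per library against a control of its own size, per the file headers. Per the submitters' processing notes, ChIP-seq reads went with Trimmomatic 0.32, Bowtie2 2.1.0 and SAMtools 0.1.17, and RNA reads with Trimmomatic, TopHat and Cufflinks. Build and annotation: not given in the sources used here. Coordinates are as deposited. A sample of input DNA was not analysed here. The deposited lists give per peak a count of tags, the score (-10 times log10 of p), the fold enrichment as a ratio, and the false discovery rate as a percent. The deposited expression tables hold FPKM for every locus, so RNA depth is unknown.

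Densities were computed as tags per kb per 1000000 kept tags, and shared peaks overlap by at least 1 bp. Intervals are 95% exact (Clopper-Pearson, scipy 1.17.1). Among 57567 loci, 1848 without a name and 13 with a failed estimate were left out. The 21480 loci that reached 1 FPKM in 2 or more of 6 RNA libraries entered limma 3.58.1 (R 4.3.3) as log2(FPKM + 1), all genotypes (the libraries labelled jmj705 included) sharing the spread, with a trend in the empirical Bayes step and Benjamini-Hochberg adjustment at 0.05. The p-values measure the spread between these libraries. The steps were tested on simulated data.

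Peaks were named by rank of density, score, density ratio and summit shift, and loci by passing limma, by belonging to a gene list, or as WOX11 and JMJ705. Members and lists were chosen with earlier results of these data known, and the gene lists were written after the files had been opened. Of 88 list genes, 20 symbols were not found in the RefSeq table of another assembly, 3 lay elsewhere, 2 were on merged loci and 1 was not on 1 locus. Alternatives changed thresholds, scaling, overlap, the FPKM filter, the pseudocount, the replicates and the block.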

Additional observations from a re-analysis of the deposited data

How the results depend on the processing

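Alternatives marked as added were chosen after seeing the data. With a score of at least 100 the lists held 435 peaks in the wox11 background and 592 in the wild-type background, and the ratio on chromosome 10 turned to 0.645. A false discovery rate of at most 5% left 0 peaks in the wox11 background, and one of at most 1% left 0 in either list. The shared share was 28.0% in the wox11 background and 23.6% in the wild-type background with summits within 250 bp, 42.1% and 30.7% with a score of at least 100 in both lists, and 53.6% and 51.5% with it in 1 list (added). The density ratio turned to 1.07 without scaling and to 1.05 when scaled by the tags of the shared places without the place with most tags (added); scaled by tags before removal of duplicates it was 0.718. At WOX11 the ratio turned to 1.51 without scaling and to 1.41 when scaled by the tags of the shared places. Scaling by tags before removal of duplicates put the median density of the wild-type background at 7.64. Summits at genes made up 48.6% in the wox11 background and 52.8% in the wild-type background when inside a locus and 79.8% and 80.3% within 2000 bp. Peaks that overlapped a locus made up 62.8% and 64.7%, and for loci of up to 50 kb the share in the wild-type background was 69.2% (added).

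Of loci at peaks, 15 passed limma, against 5 without the FPKM filter (3 higher and 2 lower) and 4 to 8 with 1 library left out (2 to 4 higher, 2 to 4 lower), where the lone library is assumed to vary like the others. Among loci of up to 50 kb 4 were lower (added). Over all loci 180 passed, against 34 without the filter and 35 to 84 with 1 library left out. Same-numbered wox11 and wild-type RNA libraries deviated together (correlation 0.292), but nothing in the labels says that the numbers mark pairs. With the replicate block 18 loci at peaks passed, 12 of them lower, and 230 of all loci. Depth and 1 ChIP library per background limit all comparisons of the lists. The causes of these shifts were not tested beyond what fewer peaks, loci or samples give.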
